A study of Mus musculus with 4 samples.

Results

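Chromatin accessibility at the 6 mouse genes that encode retinoid receptors, Rara, Rarb, Rarg, Rxra, Rxrb and Rxrg, was examined in large peritoneal macrophages (LPMs), the main resident macrophages of the peritoneal cavity. Overlapping peaks of 4 ATAC-seq libraries (1 bp or more) were joined into regions. A merged region was assigned to a gene when that gene's annotated transcription start site (TSS) was the nearest to its midpoint, or when it overlapped the gene body. Of 70744 merged regions, 77 met this rule, with 26 at Rxra, 2 at Rxrb, 9 at Rxrg, 15 at Rara, 19 at Rarb and 6 at Rarg. ATAC-seq uses the Tn5 transposase to cut and tag open DNA. The cells came from C57BL/6 mice aged 9 weeks, with 40000 sorted LPMs in each library and the same library batch, 1, for all. RXRabfl/fl mice carry loxP-flanked Rxra and Rxrb alleles and no Cre (replicates 1 and 3), and their LysMCre+RXRabfl/fl littermates carry the same alleles with Cre driven from the lysozyme M locus, which is active in myeloid cells (replicates 1 and 2). The study's reporting form states that ATAC-seq samples departing from their group in clustering were removed, so the spread between libraries of a genotype can be understated.

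Retinoic acid receptors (RARs) bind all-trans retinoic acid and act on DNA as heterodimers with retinoid X receptors (RXRs). RXRs are also the shared partner of the vitamin D, thyroid hormone, PPAR and LXR receptors, and the heterodimers recognise direct repeats of a short hexamer whose spacing differs between partner pairs. In the peritoneal cavity, retinoic acid maintains expression of Gata6, the transcription factor that distinguishes LPMs from other macrophages.

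Sequences are shown for the promoters of Rarb and of the targeted genes Rxra and Rxrb. The Rarb promoter held the only receptor repeat found at the 6 genes. The summits of 3 Rxra regions with a peak in all 4 libraries are also shown. Bases are from mm10, and capitals mark a match to one of the motifs searched, single half-sites excepted. The promoters end at the base before the start site on the gene's own strand, at chr14:16575477-16575726 (minus strand), chr2:27676951-27677200 (plus strand) and chr17:34031562-34031811 (plus strand), 250 bases each from RefSeq. The Rxra summits are 201 bases of the plus strand at chr2:27688097-27688297 (intron 1), chr2:27740338-27740538 (intron 2) and chr2:27758450-27758650 (intron 9).
Rarb promoter: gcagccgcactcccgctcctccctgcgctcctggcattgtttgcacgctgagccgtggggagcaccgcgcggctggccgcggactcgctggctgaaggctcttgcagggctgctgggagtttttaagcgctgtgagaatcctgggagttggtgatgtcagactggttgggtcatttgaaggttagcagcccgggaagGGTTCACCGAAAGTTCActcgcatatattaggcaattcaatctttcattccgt
Rxra promoter: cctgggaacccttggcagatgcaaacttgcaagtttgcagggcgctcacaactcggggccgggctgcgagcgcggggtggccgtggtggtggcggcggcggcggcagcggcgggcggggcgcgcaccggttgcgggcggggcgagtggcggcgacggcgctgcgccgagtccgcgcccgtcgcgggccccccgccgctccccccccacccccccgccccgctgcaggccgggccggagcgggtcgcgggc
Rxrb promoter: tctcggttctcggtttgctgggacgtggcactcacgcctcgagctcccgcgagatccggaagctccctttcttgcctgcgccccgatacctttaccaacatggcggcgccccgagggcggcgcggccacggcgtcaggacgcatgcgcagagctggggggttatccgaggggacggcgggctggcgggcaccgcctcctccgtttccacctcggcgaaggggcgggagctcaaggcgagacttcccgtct
Rxra summit in intron 1: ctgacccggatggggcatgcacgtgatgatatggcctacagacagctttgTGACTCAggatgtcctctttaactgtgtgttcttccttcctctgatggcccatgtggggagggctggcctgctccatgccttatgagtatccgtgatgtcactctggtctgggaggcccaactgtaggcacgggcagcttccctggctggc
Rxra summit in intron 2: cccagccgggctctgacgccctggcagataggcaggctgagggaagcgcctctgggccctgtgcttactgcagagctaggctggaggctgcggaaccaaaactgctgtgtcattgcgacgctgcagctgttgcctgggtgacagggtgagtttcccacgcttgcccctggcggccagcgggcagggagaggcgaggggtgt
Rxra summit in intron 9: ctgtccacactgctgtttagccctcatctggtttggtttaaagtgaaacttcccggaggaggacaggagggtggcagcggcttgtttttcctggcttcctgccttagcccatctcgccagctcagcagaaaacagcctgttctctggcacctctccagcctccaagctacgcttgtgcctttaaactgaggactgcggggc

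Motifs were searched on both strands within 100 bp of each region's strongest summit. Direct repeats of the half-site NGNTCA, with A or G as the former N and G or T as the latter, were searched with spacers of 1, 2 and 5 bases (DR1, DR2 and DR5), and each repeat contains matches to the half-site. A DR5 occurred in 1 of the 77 regions (1.30%), against 0.151% of all regions, and no DR1 or DR2 occurred in them, against 0.164% and 0.136% of all regions. The DR5 match, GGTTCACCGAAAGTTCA, began at −53 from the Rarb start site, and the Rarb promoter has long been known to carry a retinoic acid response element of this kind. In the RefSeq promoter table, which held 13 entries for the 6 genes, this was the only entry of the 13 with a DR5, against 0.0883% of 32851 promoters. Among motifs of factors that shape macrophage enhancers, NGATAA with A or T first (GATA) occurred in 8 regions (10.4%, 10.6% of all regions), TGANTCA (AP-1) in 11 (14.3%, 12.7%), GAGGAAGT (PU.1) in 5 (6.49%, 9.30%) and TTGCGNAA or TTGCNCAA (C/EBP) in 5 (6.49%, 4.45%). These shares were near those of all regions. Of the 8 regions with a GATA match, 5 lay in Rarb. The summit in intron 1 of Rxra held an AP-1 match, and the summits in introns 2 and 9 and the Rxra and Rxrb promoters held no match to the motifs marked. The median GC content of the windows was 55.2%, against 51.7% over all regions.

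Each library's peaks had been called separately, and the number of peaks differed strongly between libraries. There were 38048 and 16097 peaks for RXRabfl/fl (replicates 1 and 3) against 65421 and 55581 for LysMCre+RXRabfl/fl (replicates 1 and 2). Each peak carries a fold enrichment, the tag pileup at its summit over the local background. A whole-number pileup and its background could be solved from the fold enrichment and p-value of 175144 of 175147 peaks. The background obtained in this way was in 83.4% of peaks a whole number of tags (within 0.02) counted over 10 kb and scaled to 200 bp, the length to which tags were extended, and otherwise the commonest value of the library. It therefore measures tag density over 10 kb around a summit, peaks in that stretch included. Over regions called in all 4 libraries, the median pileup was 97 and 20 tags in RXRabfl/fl replicates 1 and 3, and 99 and 65 in LysMCre+RXRabfl/fl replicates 1 and 2. The median background was 5.80, 1.80, 5.68 and 4.42 tags per 200 bp in the same order. RXRabfl/fl replicate 3 was thus the library with the fewest peaks and the lowest pileups. Its commonest background, 1.06, was near the 1.08 of LysMCre+RXRabfl/fl replicate 2. The median fold enrichment over the same regions was 14.5, 7.52, 15.1 and 12.0. Both RXRabfl/fl libraries had fewer peaks than either LysMCre+RXRabfl/fl library, so the number of peaks went with genotype.

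The label of the cells was checked at promoters of marker genes. Of 8 macrophage markers, 7, 7, 8 and 8 had a called promoter region in RXRabfl/fl replicates 1 and 3 and LysMCre+RXRabfl/fl replicates 1 and 2, in that order, and of 8 LPM markers, 8, 6, 8 and 8. The 7 macrophage markers that limma tested had median log2 fold changes of −0.21 in fold enrichment, 0.17 in pileup and 0.24 in background, with 0 called. Over the 6 LPM markers that limma tested, the median log2 fold change was −0.24 in fold enrichment, −0.68 in pileup and −0.43 in background, below the −0.17, −0.19 and −0.06 of promoter regions of all genes, and 0 were called. At Gata6 the values were −0.76 ± 0.28 (adjusted p = 0.148), −1.16 ± 0.41 (adjusted p = 0.0914) and −0.44 ± 0.24 (adjusted p = 0.177) from limma. At Timd4 the background had −0.84 ± 0.24 (adjusted p = 0.00499 from limma). There RXRabfl/fl replicate 3 stood at 1.06, the commonest background of that library, below which no value can fall. All 5 B cell markers examined, Cd79a, Cd79b, Ms4a1, Pax5 and Blk, lacked a promoter region in every library. Markers of T cells (Cd2 alone, of 5), of mast cells or granulocytes (S100a8 alone, of 6) and of mesothelial or stromal cells (Pdgfra alone, of 6) had 1, 0, 1 and 1 called promoters each. Of 10 markers of small peritoneal or monocyte-derived macrophages, 3, 2, 9 and 8 had a called promoter. Of 14478 promoter regions of all genes the libraries called 80.2%, 54.3%, 96.4% and 90.9%, so fewer of these markers than of all promoters were called in RXRabfl/fl. Limma tested 2 of them, with median log2 fold changes of 0.04, 0.03 and 0.01 in the 3 measures and 0 called. Their fold enrichments summed to 30.8 and 11.5 in RXRabfl/fl and to 92.8 and 58.7 in LysMCre+RXRabfl/fl, while the mean per called promoter was 10.3 and 5.77 against 10.3 and 7.34. The highest was Irf4, at 15.9, 6.37, 18.1 and 12.8, and Ccr2 had no promoter region in any library. In the paper, LPMs are gated as low in MHC class II and small peritoneal macrophages as high. The paper also reports higher expression of some genes typical of small peritoneal macrophages in LPMs with Rxra deleted. Whether these markers have a part in the values at the retinoid receptor genes was not tested. In bulk samples, fewer cells of a type and less signal per cell cannot be told apart.

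The deleted stretches of Rxra and Rxrb could not be placed from the study's primers. Primers were matched to each gene with its flanks and to its longest transcript, and the rest of mm10 was not searched. The forward primers of the assays for the deletion lay in exon 4 of Rxra (chr2:27741764-27741943) and exon 3 of Rxrb (chr17:34033555-34033711). Their reverse primers had no exact match in the sequence searched. Of the genotyping primers, those of Rxra lay in exons 3 and 4, and at Rxrb 1 lay in intron 4 and the other had no exact match there. No region overlapped exon 4 of Rxra or exon 3 of Rxrb. The nearest Rxra region, in intron 2, ended 1.09 kb before exon 4, and the next lay 16 kb beyond it. At Rxrb, the nearest region ended 1.09 kb before exon 3. The peak lists do not show the deletion, and the genotypes are those of the labels.

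All 6 genes had called regions in every library. Of the 77 regions, 43 (55.8%) and 19 (24.7%) were called in RXRabfl/fl replicates 1 and 3, against 52.0% and 21.9% of all regions in these libraries. In LysMCre+RXRabfl/fl replicates 1 and 2, 68 (88.3%) and 62 (80.5%) were called, against 90.7% and 77.2% of all regions. All 4 libraries called 19 of the 77 (24.7%), against 21.5% of all regions. Both LysMCre+RXRabfl/fl libraries and no RXRabfl/fl library called 15 (19.5%), against 22.8% of all regions. The reverse pattern was met by 0 of the 77, against 0.0452% of all regions. Without RXRabfl/fl replicate 1 the former count was 35 (46.1%, 49.2% of all regions), and without LysMCre+RXRabfl/fl replicate 2 it was 29 (39.7%, 44.3%), while without RXRabfl/fl replicate 3 the reverse was met by 1 region (1.30%, 1.78%). Taken over the 6 genes, these shares lay near those of all regions, whose calls followed the number of peaks in a library. A two-sided exact permutation test over the libraries gave p = 0.333 for each gene except Rxrb (p = 1.00), and 0.333 is the smallest p that 2 libraries against 2 allow. The labels do not say whether the libraries of a genotype came from separate mice, so p-values here refer only to these libraries. Limma draws the variance of each region towards that of all regions tested. Its SE and p therefore do not measure the spread between libraries at that region alone.

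**Figure D1:**
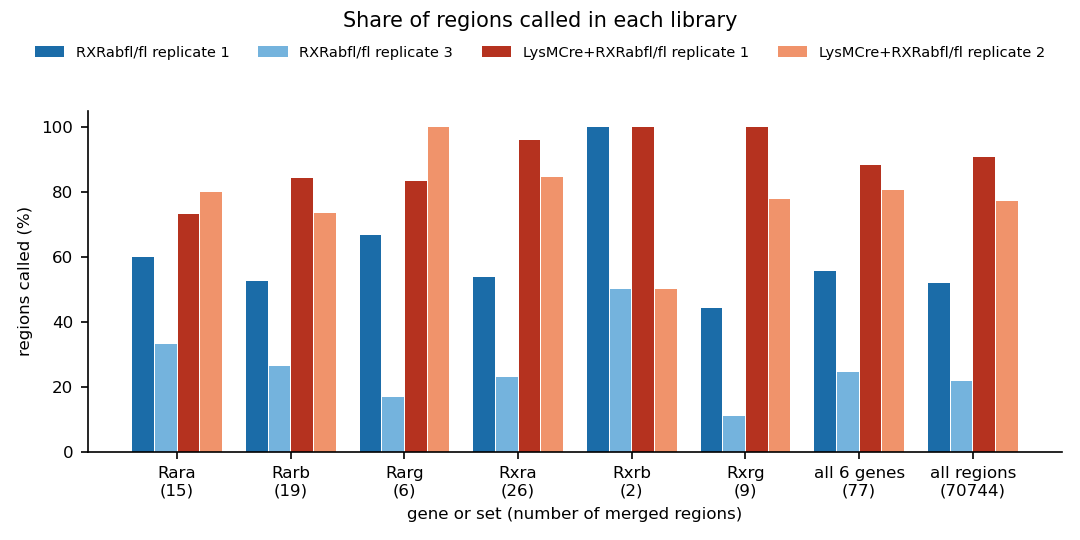
Share of merged regions called as a peak (%) in each of the 4 libraries, for each gene, for the 6 genes together and for all 70744 regions. In the 6 genes together the shares are 55.8%, 24.7%, 88.3% and 80.5%, close to the 52.0%, 21.9%, 90.7% and 77.2% of all regions.

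Rxra, the gene of the RXR that myeloid cells mainly use, spans 86.1 kb of chromosome 2 (27677201 to 27763319, plus strand). Of its 26 regions, 14 and 6 were called in RXRabfl/fl replicates 1 and 3, and 25 and 22 in LysMCre+RXRabfl/fl replicates 1 and 2. Both LysMCre+RXRabfl/fl libraries and no RXRabfl/fl library called 7 of them (26.9%), against 22.8% of all regions. All 6 genes with the exception of Rxrb had more of their regions called in each LysMCre+RXRabfl/fl library than in either RXRabfl/fl library, which was also so for all regions. When the same number of peaks was taken from each library, the 16097 of lowest q value, 22300 regions were left, of which 71.4%, 69.5%, 71.9% and 72.0% were called in the 4 libraries. Rxra then had 14 regions, and 6 and 6 were called in RXRabfl/fl against 12 and 12 in LysMCre+RXRabfl/fl. The difference in the share called was 42.9 percentage points at Rxra and 1.48 over all regions, with 33.3 at Rarg on 3 regions and negative values at Rara (−20), Rarb (−16.7), Rxrg (−25.0) and Rxrb (−50.0), which had 5, 6, 2 and 1 regions left. Both LysMCre+RXRabfl/fl libraries alone then called 3 of the 31 regions of the 6 genes (9.68%), all at Rxra, against 7.82% of all regions, so the share over the 6 genes lay near that of all regions.

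**Figure D2:**
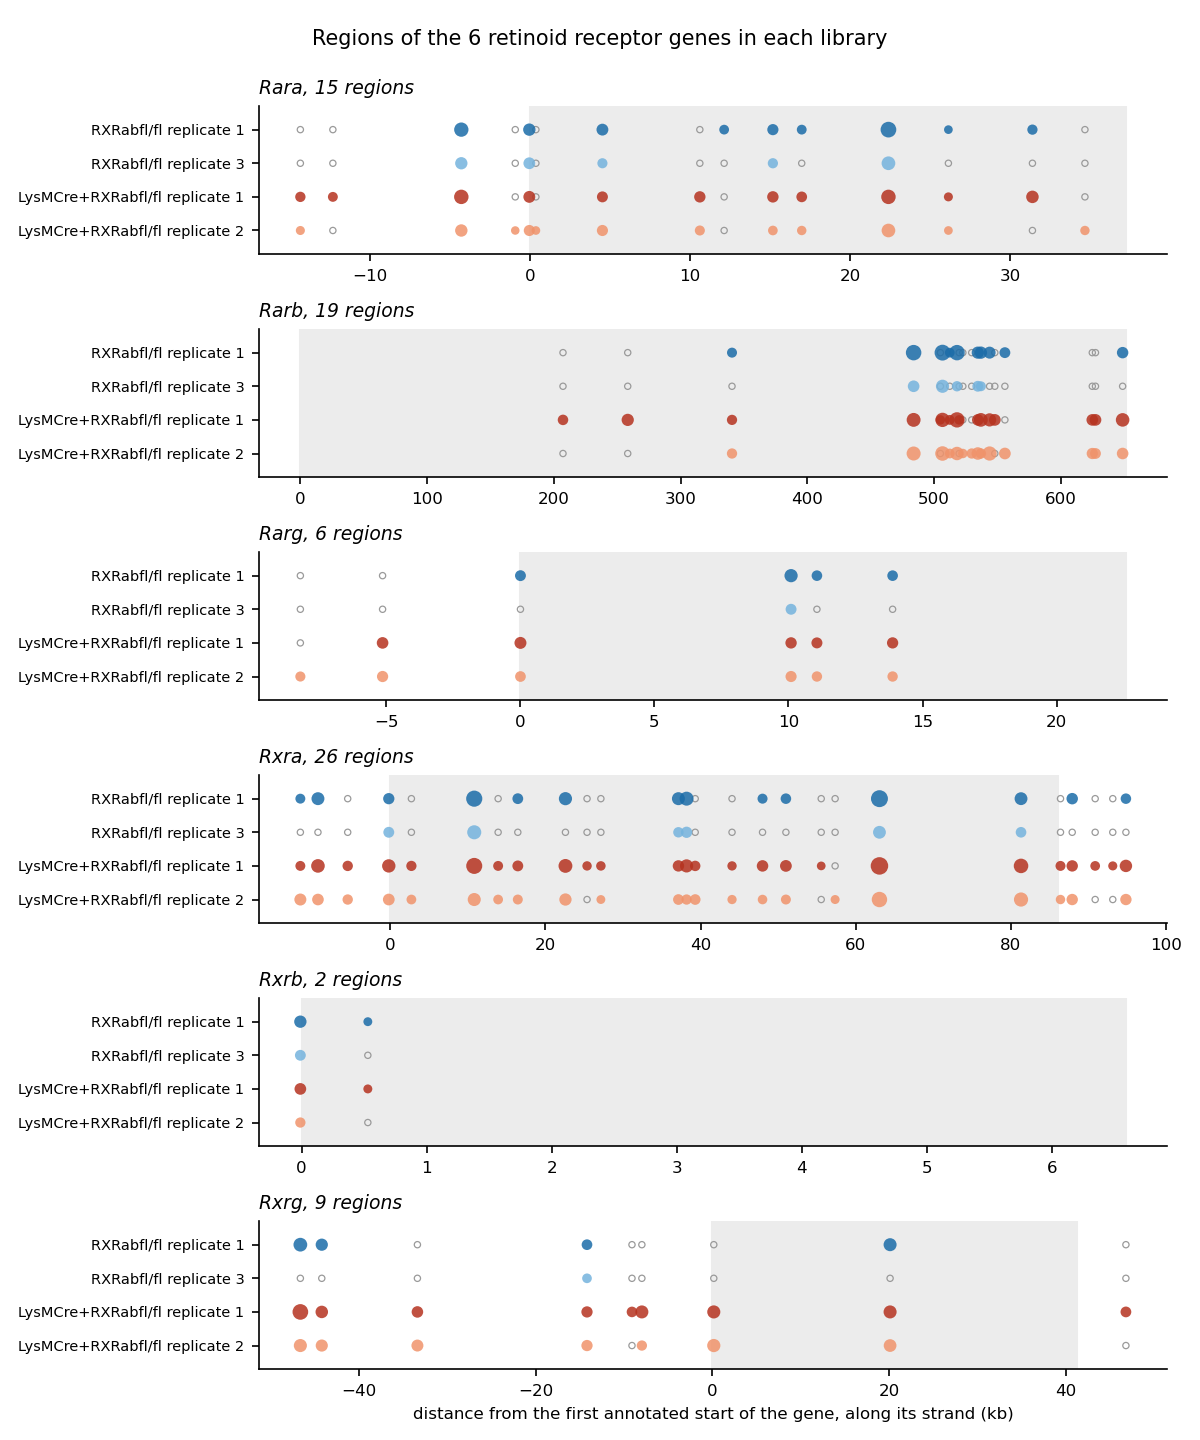
Regions of each gene by distance from its first annotated start along its strand (kb), with 1 line for each library, filled points for called regions (area grows with fold enrichment), open points for regions not called and grey shading for the gene body. At Rxra, 14 and 6 of 26 regions are filled in RXRabfl/fl and 25 and 22 in LysMCre+RXRabfl/fl.

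The Rxra region strongest on average was chr2:27739859-27740671, in intron 2 at 63.1 kb from the first start. Its fold enrichment was 18.7 and 9.28 in RXRabfl/fl replicates 1 and 3 and 20.2 and 14.9 in LysMCre+RXRabfl/fl replicates 1 and 2. Its pileup was 185 and 30 tags against 430 and 276. Its local background was 8.94 and 2.34 tags per 200 bp against 20.4 and 17.6. The fold enrichments of the genotypes overlapped, whereas pileup and background were higher in both LysMCre+RXRabfl/fl libraries than in both RXRabfl/fl libraries. On log2 values centred on each library's median, limma gave a fold change of 0.03 ± 0.21 (SE, adjusted p = 0.953) for fold enrichment, 1.34 ± 0.23 (adjusted p = 0.0199) for pileup and 1.42 ± 0.23 (adjusted p = 7.90e-07) for the background.

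A second intronic region, chr2:27757954-27759074 in intron 9 at 81.3 kb, had a fold enrichment of 9.35 and 5.37 in RXRabfl/fl and of 12.9 and 12.1 in LysMCre+RXRabfl/fl. Its pileup was 65 and 12 tags against 213 and 219, and its background 6.06 and 1.42 against 15.6 and 17.1. All 3 measures were higher in both LysMCre+RXRabfl/fl libraries. From limma, the log2 fold change was 0.45 ± 0.21 (adjusted p = 0.234) for fold enrichment, 2.09 ± 0.27 (adjusted p = 0.0183) for pileup and 1.85 ± 0.24 (adjusted p = 1.38e-10) for the background. The log2 fold change in pileup ranked at 2 from the highest of 15196 regions, and that in background at 11.

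The Rxra promoter region at the first start, chr2:27676693-27677342, had a fold enrichment of 6.43 and 5.77 in RXRabfl/fl and of 10.4 and 7.27 in LysMCre+RXRabfl/fl. Its pileup was 40 and 17 tags against 128 and 80, and its background 5.38 and 2.12 against 11.4 and 10.1. Before centring, all 3 measures were higher in both LysMCre+RXRabfl/fl libraries, and after centring the fold enrichments overlapped. The log2 fold change was 0.15 ± 0.26 (adjusted p = 0.762 from limma) for fold enrichment, 1.09 ± 0.33 (adjusted p = 0.0592) for pileup and 1.04 ± 0.23 (adjusted p = 3.76e-04) for the background. The other annotated starts of Rxra, at 27709292 and 27710583 within intron 1 of the longest transcript, had no promoter region in any library.

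The rise in background was not limited to these regions. It was noticed after the values had been seen and was then tested over all regions in the same way as the other measures. The background rose at 6 of the 6 Rxra regions called in all 4 libraries, with log2 fold changes of 1.04 to 1.85 (median 1.39), against 2.15% of all regions called higher. The background is counted over 10 kb, so the regions at 37.2 and 38.2 kb share most of a window and are close to a single measurement. In all 6, both LysMCre+RXRabfl/fl libraries lay above both RXRabfl/fl libraries after centring, which 27.0% of all regions did. The pileup passed as higher in 2 of the 6, those in introns 2 and 9, against 2.49% of all regions called higher. Its log2 fold changes ran from 0.64 to 2.09. An adjusted p below 0.05 from limma was met by 3 of the 6, against 1813 of 15196 of all regions. The third was chr2:27687678-27688387 in intron 1, with 0.89 ± 0.23 (adjusted p = 0.0399 from limma). All 6 lay above in both libraries, which 25.2% of all regions did. Without LysMCre+RXRabfl/fl replicate 2, 0 of the 6 and 0 of all regions passed as higher on the pileup, with a median log2 fold change at Rxra of 1.08 against 0.99 with all libraries, and 5 of the 6 passed on the background (1.61% of all regions). Without RXRabfl/fl replicate 1, the background passed in 5 of the 6 (3.29% of all regions). Without RXRabfl/fl replicate 3, the library with the fewest peaks, 14 regions were called in all of the others, of which 8 passed on the pileup (5.17% of all regions) and 12 on the background (1.80%). In such fits the lone library is taken to vary like the other genotype.

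**Figure D3:**
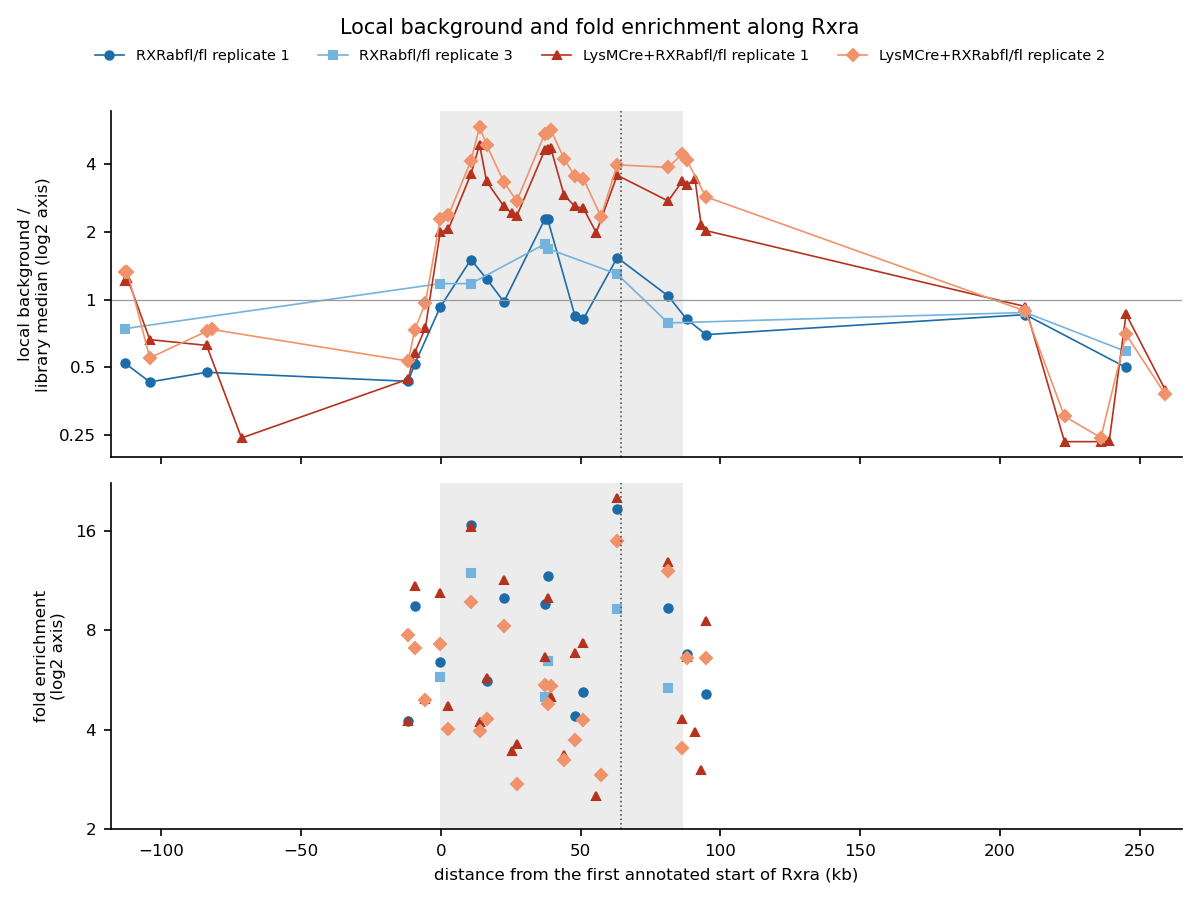
Top, local background divided by the library's median, and bottom, fold enrichment, both on log2 axes, against distance from the first annotated start of Rxra (kb), with points for called regions, grey for the gene body and a dotted line for exon 4. Both LysMCre+RXRabfl/fl libraries lie above both RXRabfl/fl libraries in background across the gene body, while their fold enrichments intermix.

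Along the locus, the background of the 18 regions in the Rxra gene body ran from 4.76 to 13.3 (median 6.64) in RXRabfl/fl replicate 1 and from 1.42 to 3.18 (median 2.23) in replicate 3, over the 10 and 6 regions they called. In LysMCre+RXRabfl/fl it ran from 11.3 to 27.9 (median 15.6) in replicate 1 and from 10.1 to 26.0 (median 17.4) in replicate 2, over 17 and 16 regions. These sets differ between libraries. Over the 6 regions called in all 4, the medians divided by each library's median were 1.53 and 1.24 in RXRabfl/fl and 3.6 and 4.06 in LysMCre+RXRabfl/fl. Around called summits the genotypes thus differed in tag density beyond the difference between libraries as a whole. Stretches between called regions were not measured. Of the marker promoters, the 7 macrophage markers that limma tested had a median log2 fold change in background of 0.24 and the 6 LPM markers of −0.43, against 1.39 over the 6 Rxra regions.

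The difference reached past the gene end, and where it ended was not measured, as no region was called between 94.8 and 209 kb. Divided by the library medians, the background at −11.6 kb was 0.434 in RXRabfl/fl replicate 1 and 0.444 and 0.534 in LysMCre+RXRabfl/fl, and at −9.31 kb it was 0.517 against 0.581 and 0.733. At the first start it was 0.928 and 1.18 in RXRabfl/fl against 2.00 and 2.29. Beyond the gene end, at 87.9 kb from the first start, it was 0.821 in RXRabfl/fl replicate 1 against 3.23 and 4.19, a distance as large as within the gene, and at 94.8 kb it was 0.700 against 2.03 and 2.87. The libraries met at 209 kb, nearest to Col5a1, with 0.859 and 0.878 against 0.933 and 0.891. LysMCre+RXRabfl/fl was higher again at 245 kb, with 0.500 and 0.589 against 0.863 and 0.701, and at −113 kb, nearest to Gm13421, with 0.524 and 0.744 against 1.21 and 1.33. At −104 and −83.7 kb, RXRabfl/fl replicate 1 had 0.431 and 0.476, LysMCre+RXRabfl/fl replicate 1 had 0.665 and 0.627, and replicate 2 had 0.552 and 0.724. In every one of these regions both LysMCre+RXRabfl/fl libraries lay above the RXRabfl/fl libraries that called it.

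Fold enrichment, being the ratio of pileup to background, did not carry this difference. For the 6 Rxra regions, its log2 fold changes ran from −0.69 to 0.45, with 3 above and 3 below 0. The lowest values were at the neighbouring intron 1 regions chr2:27714150-27714554, with 9.62 and 5.02 against 6.66 and 5.48, and chr2:27715154-27715654, with 11.7 and 6.44 against 10.0 and 4.80. Their log2 fold changes were −0.57 ± 0.20 (adjusted p = 0.140 from limma) and −0.69 ± 0.25 (adjusted p = 0.141). The intron 1 region chr2:27687678-27688387 had 16.7 and 11.9 against 16.4 and 9.77, with a pileup of 162 and 36 against 353 and 188 and a background of 8.76 and 2.12 against 20.6 and 18.3. None of the 6 passed on fold enrichment. At these 3 intron 1 regions the sign of the change depended on the measure, and at the other 3 all measures were above 0.

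The size of these changes rests on how libraries are scaled to each other. The centring used sets the median of regions called in all 4 libraries to 0. Scaled instead on the commonest background of each library, 1.97, 1.06, 1.33 and 1.08, all regions shifted by a median of 0.85 and the Rxra regions by 2.30. Without scaling these medians were 0.58 and 2.03. Each scaling moves all regions of a library by the same amount, so the distance of Rxra from all regions is the same under each by construction.

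Rxrb, the other targeted gene, is short (6.59 kb on chromosome 17, 34031812 to 34038403, plus strand) and had 2 regions, at its 2 annotated starts. The promoter region chr17:34031478-34032127, which also overlaps the neighbouring zinc transporter gene Slc39a7, had a fold enrichment of 8.36 and 5.71 in RXRabfl/fl replicates 1 and 3 and of 7.17 and 4.79 in LysMCre+RXRabfl/fl replicates 1 and 2. Its pileup was 115 and 24 tags against 101 and 47, and its background 12.9 and 3.38 against 13.2 and 9.02. The genotypes overlapped in all 3 measures before centring, and after it both LysMCre+RXRabfl/fl libraries lay below in fold enrichment and pileup. The log2 fold change was −0.60 ± 0.22 (adjusted p = 0.150 from limma) for fold enrichment, −0.47 ± 0.24 (adjusted p = 0.208) for pileup and 0.09 ± 0.23 (adjusted p = 0.820) for the background. The region at the second start, chr17:34032222-34032462, was called only in RXRabfl/fl replicate 1 (fold enrichment 2.74) and LysMCre+RXRabfl/fl replicate 1 (2.85). Rxrb thus showed no passing change in any of the 3 measures, unlike the background at Rxra.

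Rxrg encodes the RXR that is mostly found in muscle and brain. Its 9 regions lay mainly upstream, with 2 in the gene body, and 4, 1, 9 and 7 of them were called in RXRabfl/fl replicates 1 and 3 and LysMCre+RXRabfl/fl replicates 1 and 2. The strongest on average was chr1:167551513-167552034, at −46.6 kb from the start. Its fold enrichment was 11.2 in RXRabfl/fl replicate 1 and 15.5 and 9.84 in LysMCre+RXRabfl/fl. RXRabfl/fl replicate 3 did not call it. The region at the first start, chr1:167598259-167598771 in exon 1, was called only in LysMCre+RXRabfl/fl, at 9.85 and 10.1 with 26 and 24 tags. The region at the second start, chr1:167618194-167618702 in intron 2, stood at 9.68 in RXRabfl/fl replicate 1 and at 9.75 and 9.14 in LysMCre+RXRabfl/fl. At both starts the values in the libraries that called them were close, and RXRabfl/fl replicate 3, with the lowest pileups, called neither. The first start was also missed by RXRabfl/fl replicate 1, so it has no RXRabfl/fl value, and 22.8% of all regions had this pattern of calls. At the strongest region, before centring, the LysMCre+RXRabfl/fl libraries lay on either side of RXRabfl/fl replicate 1.

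A region at −14.2 kb from Rxrg, chr1:167583922-167584438, was called in all 4 libraries with low pileups of 19 and 10 tags in RXRabfl/fl and 14 and 13 in LysMCre+RXRabfl/fl. Its fold enrichment was 5.43 and 3.87 against 6.41 and 6.42, with a log2 fold change of 0.12 ± 0.23 (adjusted p = 0.797 from limma). Its background was 2.68 and 1.84 against 1.34 and 1.18, and this passed as lower in LysMCre+RXRabfl/fl (log2 fold change −1.45 ± 0.24, adjusted p = 6.76e-07 from limma), the only one of the 19 to do so, against 2.37% of all regions called lower. The LysMCre+RXRabfl/fl values lie at or near the commonest background of those libraries, 1.33 and 1.08, below which no value can fall. After centring, the log2 background was −1.11 and 0.03 in RXRabfl/fl against −2.08 and −1.91 in LysMCre+RXRabfl/fl. The RXRabfl/fl libraries thus lay further apart than the SE of 0.24 conveys.

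Of the RAR genes, which encode the retinoic acid receptors proper, Rara spans 37.2 kb of chromosome 11 (98937696 to 98974942, plus strand) with 5 annotated starts, 4 of them with a promoter region. Of its 15 regions, 9, 5, 11 and 12 were called in RXRabfl/fl replicates 1 and 3 and LysMCre+RXRabfl/fl replicates 1 and 2. The strongest on average was chr11:98959444-98960746, at the internal start 98960471. Its fold enrichment was 15.6 and 11.1 in RXRabfl/fl and 12.7 and 11.0 in LysMCre+RXRabfl/fl. Its pileup was 280 and 48 tags against 328 and 235, and its background 17.0 and 3.40 against 25.0 and 20.5. The genotypes overlapped in fold enrichment and pileup before centring. After it, both LysMCre+RXRabfl/fl libraries lay below in fold enrichment and above in pileup and background. The log2 fold change was −0.53 ± 0.22 (adjusted p = 0.194 from limma) for fold enrichment, 0.39 ± 0.23 (adjusted p = 0.251) for pileup and 0.94 ± 0.24 (adjusted p = 0.00141) for the background.

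At the first Rara starts, 98937696 and 98937718, the region chr11:98937440-98937843 had a fold enrichment of 8.38 and 7.34 against 7.54 and 6.15. Its pileup was 172 and 37 tags against 169 and 120, and its background 19.6 and 4.18 against 21.6 and 18.7. The log2 fold changes were −0.57 ± 0.25 (adjusted p = 0.208 from limma) for fold enrichment, −0.03 ± 0.22 (adjusted p = 0.939) for pileup and 0.51 ± 0.24 (adjusted p = 0.108) for the background. The region near the start 98964872, chr11:98963675-98964011, was weak, with a fold enrichment of 2.48 in RXRabfl/fl replicate 1 and of 2.91 and 2.52 in LysMCre+RXRabfl/fl. In the 5 Rara regions called in all 4 libraries the background had log2 fold changes of 0.51 to 0.94, 2 of them with an adjusted p below 0.05 from limma, against 3023 of 15196 of all regions, and 0 past a log2 fold change of 1. Both LysMCre+RXRabfl/fl libraries lay above in all 5, against 27.0% of all regions. Neighbouring regions, such as those at −4.31, −0.0550 and 4.52 kb, share part of their 10 kb windows and are not separate measurements. The local background was higher than the library median at Rara in both genotypes, with median ratios over these 5 regions of 2.69 and 1.89 in RXRabfl/fl and 3.07 and 3.67 in LysMCre+RXRabfl/fl.

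Rarb, itself a classic target of retinoic acid, is the longest of the 6 genes (651 kb on chromosome 14, 16430839 to 17082331, minus strand). All 19 of its regions lay in the gene body, and 3 of them had Top2b as the nearest start. Of the 19, 10 and 5 were called in RXRabfl/fl and 16 and 14 in LysMCre+RXRabfl/fl. By fold enrichment, the highest in LysMCre+RXRabfl/fl replicate 1 was chr14:16563893-16564398 (14.7). The strongest on average was the promoter region chr14:16575227-16575926, which holds the DR5. Its fold enrichment was 16 and 10 in RXRabfl/fl and 12.4 and 12.9 in LysMCre+RXRabfl/fl, its pileup 102 and 29 tags against 66 and 69, and its background 5.44 and 2.00 against 4.40 and 4.44. The genotypes overlapped in each measure before centring, and after it only fold enrichment was separated, with LysMCre+RXRabfl/fl lower. The log2 fold changes were −0.37 ± 0.22 (adjusted p = 0.344 from limma), −0.55 ± 0.29 (adjusted p = 0.212) and −0.21 ± 0.23 (adjusted p = 0.569). The distal start of Rarb, 17082331, had no promoter region in any library. In the 5 Rarb regions called in all 4 libraries, the median ratio of background to the library median was 0.738 and 1.00 in RXRabfl/fl and 0.838 and 0.833 in LysMCre+RXRabfl/fl, so Rarb showed no rise like that over Rxra.

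Rarg (22.6 kb on chromosome 15, 102234938 to 102257522, minus strand) had 6 regions, and the libraries called 4, 1, 5 and 6 of them in the same order. Both of its starts had a promoter region. At the start 102257522 (chr15:102257110-102257922), the fold enrichment was 5.78 in RXRabfl/fl replicate 1 and 7.69 and 5.50 in LysMCre+RXRabfl/fl, and at the start 102246500 (chr15:102246239-102246682) it was 5.30 against 5.97 and 4.98. RXRabfl/fl replicate 3 called neither, and before centring the values of the other libraries overlapped. The region strongest on average, chr15:102246894-102247955 in intron 3, had 10.1 and 5.83 in RXRabfl/fl against 6.59 and 6.19 in LysMCre+RXRabfl/fl. These overlapped before centring and were lower in LysMCre+RXRabfl/fl after it, with a log2 fold change of −0.63 ± 0.21 (adjusted p = 0.122 from limma). In LysMCre+RXRabfl/fl replicate 1 it lay below the region at the start 102257522. Its background, 21 and 5.18 against 19.6 and 16.5, had a log2 fold change of 0.15 ± 0.23 (adjusted p = 0.691).

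Promoter accessibility differed between the genes by fold enrichment, which does not depend on gene length. In RXRabfl/fl replicate 1 the values were 16 for Rarb, 15.6 for Rara at its internal start, 9.68 for Rxrg at its second start, 8.38 for the first Rara starts, 8.36 for Rxrb, 6.43 for Rxra and 5.78 for Rarg at its first start, taking the region nearest to each start. In LysMCre+RXRabfl/fl replicate 2 they were 12.9, 11.0, 9.14, 6.15, 4.79, 7.27 and 5.50. Rarb and the internal Rara start were highest in all 4 libraries, with their order changing between libraries. The order depended on the measure. A stronger Rarg region, with 10.1 and a pileup of 220, also reaches into the promoter window of the second Rarg start. By pileup in RXRabfl/fl replicate 1, Rarb (102) lay below the internal (280) and first Rara starts (172), the second Rarg start (116) and Rxrb (115), and Rxrg (29) was low. By fold enrichment, Rxra lay below Rxrb in RXRabfl/fl replicate 1 and above it in the other libraries, so the order of these neighbours was not stable. Differences between genes were not tested.

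Over the 19 regions of the 6 genes called in all 4 libraries, limma on fold enrichment called 0 higher and 0 lower at an adjusted p below 0.05 and a log2 fold change past 1, against 0.0395% and 0.0461% of all regions, and 7 of the 19 had an unadjusted p below 0.05, against 3345 of 15199. On the pileup it called 2 higher and 0 lower, against 2.49% and 4.98% of all regions, with 6 at an unadjusted p below 0.05, against 5047 of 15196. On the background it called 6 higher and 1 lower, against 2.15% and 2.37% of all regions. After centring, both LysMCre+RXRabfl/fl libraries lay above both RXRabfl/fl libraries in fold enrichment at 1 of the 19 and below at 9, against 22.3% and 32.9% of all regions. For pileup these counts were 9 and 3, against 25.2% and 36.9%, and for the background 12 and 1, against 27.0% and 32.6%. The median log2 fold change of the 19 was −0.34 for fold enrichment, 0.22 for pileup and 0.53 for the background, and over all regions it was −0.09, −0.10 and −0.05. The higher values in pileup and background came mainly from Rxra and Rara, with 6 and 5 of the 19 regions.

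**Figure D4:**
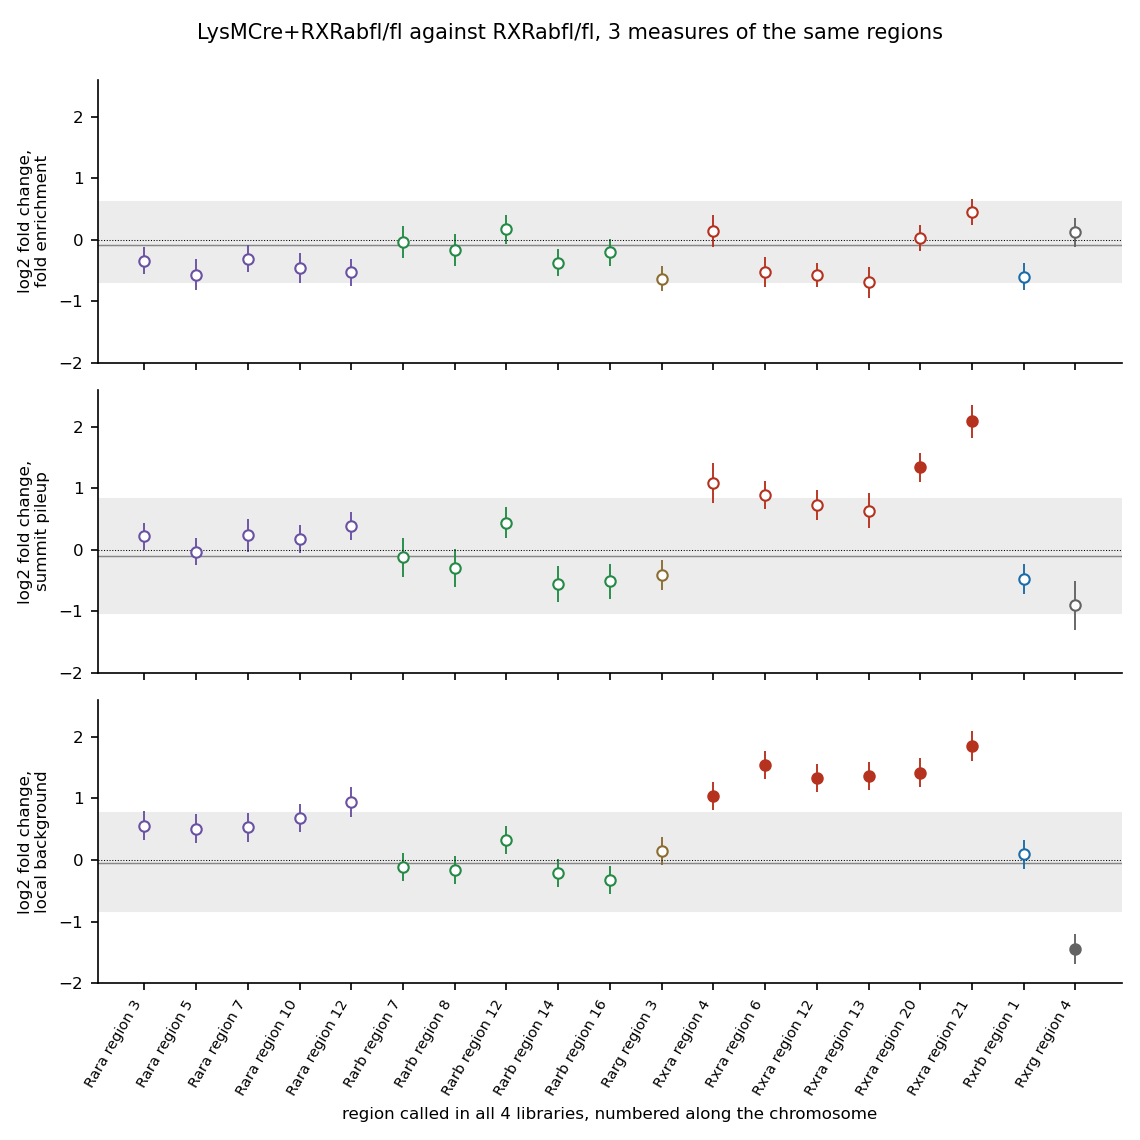
Log2 fold change of LysMCre+RXRabfl/fl over RXRabfl/fl with its SE from limma, in fold enrichment, summit pileup and local background, for the 19 regions called in all 4 libraries, where filled points passed, grey bands hold all regions between their 5th and 95th percentiles and the grey line is their median. The 6 Rxra points are all filled in the background panel, 2 are filled in the pileup panel and 0 in the fold enrichment panel.

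Other genes of the pathway were read at their promoters. Of 19 genes that carry, make or break down retinoids, 9 had a promoter region, with 6 and 4 called in RXRabfl/fl and 9 and 9 in LysMCre+RXRabfl/fl, and calls over promoter regions of all genes (80.2%, 54.3%, 96.4% and 90.9%) had the same direction. Limma tested 4 of them and called 0 on any of the 3 measures. The largest changes in fold enrichment were at Dhrs3, a retinaldehyde reductase (−0.41 ± 0.22, adjusted p = 0.296), Rdh10, which oxidises retinol (0.25 ± 0.23, adjusted p = 0.522), and Fabp5, which carries retinoic acid (0.15 ± 0.22, adjusted p = 0.698). The Cyp26 enzymes that degrade retinoic acid, Cyp26a1, Cyp26b1 and Cyp26c1, had no promoter region.

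Of 13 nuclear receptors that pair with RXR, 10 had a promoter region, called in 10, 8, 10 and 10 cases. Limma tested 7, called 0 on fold enrichment and the background, and on the pileup called Nr1h2, which encodes LXRβ, as lower (log2 fold change −1.42, adjusted p = 0.0331), as it did 394 of 7830 promoter regions of all genes. Its fold enrichment was 8.94 and 6.07 in RXRabfl/fl against 7.63 and 3.35 in LysMCre+RXRabfl/fl, which overlapped before centring. The log2 fold change of the centred values was −0.91 ± 0.27 (adjusted p = 0.0970 from limma). Next in size were Nr4a1, an orphan receptor (−0.40), and the fatty acid receptor gene Ppara (−0.17). Of 13 co-activators and co-repressors, 13, 11, 13 and 13 promoters were called, and of the 11 that limma tested it called 0 on any measure. The largest changes among these were at the co-activator genes Ep300 (−0.64 ± 0.21, adjusted p = 0.109) and Ncoa1 (−0.50 ± 0.22, adjusted p = 0.200) and the co-repressor gene Sin3a (−0.46 ± 0.27, adjusted p = 0.315). The median log2 fold changes of the 3 lists were 0.07, −0.17 and −0.19, against −0.17 over 7832 promoter regions, of which limma called 0 higher and 4 lower.

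Genes with the most similar promoter pattern were taken by the distance between centred log2 fold enrichments over the 4 libraries, among 7831 promoter regions. Nearest to Rxra were Snx27 (distance 0.219), with 6.90 and 6.54 in RXRabfl/fl against 9.96 and 7.36 in LysMCre+RXRabfl/fl, Apba1 (0.239) and Irf5 (0.243). Nearest to Rxrb were the cholesterol transporter gene Abca1 (0.130), with 8.96 and 5.79 against 6.86 and 4.64, Taf11 (0.160) and Jade2 (0.164).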

How the data were processed

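ATAC-seq peaks of 4 libraries were analysed, with 2 per genotype taken from the labels. The authors trimmed adaptors with cutadapt, aligned paired reads to mm10 with Bowtie2, discarded duplicates, mitochondrial reads and sex chromosomes, and ran MACS2 2.1.1 per library (tags extended to 200 bp, q value 0.05), per the methods of the study and the submitters' processing notes. Fold enrichment, as deposited, is the summit's ratio over local background. The deposited −log10 p-value and −log10 q-value of each peak were used to solve the pileup and for the equal-peak comparison. The authors used edgeR on read counts through DiffBind, which was not repeated here. The deposited integer score was not used.

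Pileup and background were solved as whole tags with a pseudocount of 1. A promoter region shared 1 bp or more with the stretch between 1 kb before and 200 bp after a RefSeq start, and the one nearest to the start was taken for each start of the 6 genes, the strongest for genes of the lists. Regions called in all 4 libraries were compared on log2 values by limma 3.58.1 (R 4.3.3, lmFit, eBayes), centred on each library's median, with Benjamini-Hochberg adjustment over all regions, an adjusted p below 0.05 and a log2 fold change past 1. The solver and limma were tested on simulated data. Scripts used Python 3.11.15, numpy 2.4.6, pandas 2.3.3, scipy 1.17.1 and samtools 1.23.1.

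The genes named are the 6 members, with the region at each start, the strongest region of each gene and regions called by limma on fold enrichment or pileup in full. Other regions were named after their values were seen. Of each pathway list, up to 3 genes with the largest change at the promoter are named, and the 3 genes most similar to each of Rxra and Rxrb. Members and lists were chosen with earlier results of these data known. Some genes of the marker and pathway lists are not reported here, and the counts and medians of their lists leave them out. Alternatives were equal numbers of peaks, a stricter q value of 0.01, peaks reduced to summits, other assignments to genes, each library left out, quantile normalization, a mean-variance trend, regions called in at least 2 libraries, other promoter windows, and pileup or background as the measure.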

Additional observations from a re-analysis of the deposited data

How the results depend on the processing

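Across 19 results and their alternatives, 154 of 190 recomputed values kept their direction and their side of the threshold or stayed within the range set for them. Of the others, 27 moved, 8 reversed and 1 came to pass. The local background as a measure, and every alternative for the Rxra counts on pileup and background, were added after the data had been seen. The cause was not tested for any change below unless the alternative's construction shows it.

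Limma calls among the 19 regions were 0 on fold enrichment, 2 on the pileup and 7 on the background. The other alternatives that kept every library used fold enrichment and also gave 0 calls at the retinoid receptor genes. They tested 42 regions when those called in at least 2 libraries were taken, 16 with peaks reduced to summits and 19 otherwise. Among all regions, 13 were called on fold enrichment, 1136 on the pileup, 687 on the background, 2707 with regions called in at least 2 libraries, 137 with a mean-variance trend, and 12 to 1182 with a library left out. The highest of these, 1182, was without RXRabfl/fl replicate 3, where 33268 regions could be tested, and without RXRabfl/fl replicate 1 the count was 789.

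The median log2 fold change over the 5 promoter regions tested, at Rara, Rarb, Rxra and Rxrb, was −0.53. It was −0.03 on the pileup and 0.51 on the background. With regions called in at least 2 libraries, where 10 were tested, it was 0.03. It ran from −0.76 to −0.26 with a library left out. Single promoters turned at Rara, to 0.51 on the background at the start 98937696, and to 0.39 on the pileup and 0.94 on the background at the start 98960471, and at Rxrb, to 0.09 on the background. At Rxra the value of 0.15 ran from −0.25 (without RXRabfl/fl replicate 1) to 0.24 with a library left out.

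Regions of the 6 genes called in both LysMCre+RXRabfl/fl libraries alone numbered 15 (19.5%, 22.8% of all regions), 9 of 56 by gene body overlap (16.1%), 3 of 31 at equal numbers of peaks (9.68%, 7.82%) and 15 to 35 with a library left out, 35 being without RXRabfl/fl replicate 1 (46.1%, 49.2%) and 29 without LysMCre+RXRabfl/fl replicate 2 (39.7%, 44.3%). Those called in both RXRabfl/fl libraries alone numbered 0, but 1 with peaks reduced to summits and 0 to 1 with a library left out. The share of the 77 regions called was 44.2 percentage points higher in LysMCre+RXRabfl/fl (47.0 over all regions), 12.9 at equal numbers of peaks (1.48) and 28.6 to 60.5 with a library left out (32.0 to 63.2). By gene, equal numbers of peaks gave −20 at Rara, −16.7 at Rarb and −25.0 at Rxrg.

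Rxra regions called on the pileup numbered 2 of 6 (2.49% of all regions called higher), 4 with quantile normalization (3.81%), 9 of 14 with regions called in at least 2 libraries (10.1%) and 0 to 8 with a library left out (0 to 5.17%). On the background they numbered 6 of 6 (2.15%), 5 with quantile normalization (1.67%), 12 of 14 with regions called in at least 2 libraries (3.0%) and 5 to 12 with a library left out (1.61 to 3.29%). No paired analysis was possible because the labels do not tie a library of either genotype to one of the other.

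A region that a library does not call has no value, so changes at regions missed in RXRabfl/fl replicate 3, with a median pileup of 20 tags, could not be measured in all 4 libraries. Peak lists hold no tags outside peaks, and the background between called regions was not analysed here. With 2 libraries per genotype, no exact test can pass.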
